A study of Mus musculus with 7 samples.

Results

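Imprinted genes, which are expressed mainly or only from the allele inherited from one parent, were examined in sorted mouse β-cells. The list of 10 genes was set by symbol and covers the Dlk1-Meg3 locus (Dlk1, Meg3, Rian and Mirg), the neighbouring Igf2-H19 pair, and Cdkn1c, Plagl1, Peg3 and Grb10. Of these, 6 had a row among the 35013 gene symbols of the count table, and all 6 passed the filter on low counts in each of the 3 comparisons below. The non-coding RNAs Meg3, Rian, Mirg and H19 were not analysed here. The table has rows for 23 of the 5854 long intergenic RNA genes of the GENCODE M21 annotation, against 21302 of its 21951 protein-coding genes, so the non-coding arm of these loci is outside what was measured.

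The study asked what loss of the aldehyde dehydrogenase gene Aldh1a3 from β-cells does in diabetic mice. Poly-A RNA was sequenced from sorted β-cells of 2 mice labelled KO_db/db, 2 db/db mice and 3 lean db/+ mice, with 1 library per mouse. All 3 groups carried RIP-Cre Herr, a Cre driven by the rat insulin promoter, and 1 copy of the tdT reporter allele (tdT fl/+). The knockout mice were homozygous for the floxed Aldh1a3 allele (fl/fl), and both control groups were heterozygous (fl/+). The leptin receptor genotype Lepr was db/db in the knockout and db/db groups and db/+ in the lean group. The Lepr db allele removes the signalling form of the leptin receptor, and db/db mice become obese and diabetic. The study used male and female mice of 16 to 20 weeks, and the fast before islet isolation lasted 16 h. Genotypes and ages are those of the study's methods, while the labels give the group and the mouse number.

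Imprinting is kept by DNA methylation that is set in one germ line and protected in the embryo, and the marked regions control clusters of genes. Many paternally expressed imprinted genes, such as Igf2 and Dlk1, promote growth of the fetus, and several maternally expressed ones, such as Cdkn1c and Grb10, restrain it. In islets, Cdkn1c is known as a brake on β-cell division, whose loss in focal congenital hyperinsulinism accompanies β-cell overgrowth, and overexpression of PLAGL1 is a cause of transient neonatal diabetes. These libraries count RNA from both alleles together, so the parental origin of a transcript was not measured.

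Dlk1 and Peg3 had the largest rise and the highest level among the measured genes, and the bases upstream of their annotated starts are shown for that reason. The Dlk1 window is chr12:109452573-109452822 on the plus strand. The Peg3 window, which holds the annotated start of the neighbouring gene Usp29 at 6730578, is chr7:6730432-6730669 on the minus strand. The 12 bases of the original window that an annotated Peg3 exon covers were left out of it. Both come from the RefSeq promoter table on GRCm38.p6, which matched 8 of the 10 listed genes (all but Cdkn1c and H19), and both are written 5′ to 3′ along the gene, with CG dinucleotides, the sites of DNA methylation, in capitals.
Dlk1: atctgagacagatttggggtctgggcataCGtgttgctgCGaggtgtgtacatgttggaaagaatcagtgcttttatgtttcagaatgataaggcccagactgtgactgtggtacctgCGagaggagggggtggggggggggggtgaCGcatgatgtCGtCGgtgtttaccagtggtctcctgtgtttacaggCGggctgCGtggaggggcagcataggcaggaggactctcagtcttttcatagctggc
Peg3: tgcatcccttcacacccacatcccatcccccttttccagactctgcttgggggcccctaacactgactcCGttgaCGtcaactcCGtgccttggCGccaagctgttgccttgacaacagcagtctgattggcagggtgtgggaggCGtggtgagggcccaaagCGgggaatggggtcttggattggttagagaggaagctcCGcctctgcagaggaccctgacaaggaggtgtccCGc
Each window held 8 CG dinucleotides, and 57.0% of the 32851 promoter windows in the table, each of 250 bases, held fewer. Methylation itself was not measured.

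Total counts ran from 27496645 to 35852785, and 3 counts, taken as the detection floor, were worth 0.0717 to 0.123 CPM, the count scaled to equal library size, on the scale of edgeR's TMM factors over all 7 libraries. Aldh1a3 had 4.97 and 7.89 CPM in KO_db/db, 98.4 and 194 CPM in db/db, and 0.0729 to 0.589 CPM in db/+, and each knockout value was below each db/db value. The 15 β-cell markers, Ins1 and Ins2 among them, summed to 396768 to 444522 CPM in db/+. The sum was 202940 and 226394 CPM in db/db, and 227010 and 299293 CPM in KO_db/db, so both db/db groups were below every db/+ library. Ins1 and Ins2 made up most of the sum in each library. Acinar genes made up 17.3% of KO_db/db 1 and 1.95% of KO_db/db 2, and at most 0.0560% of any other library. The db/+ library 3 stood apart in Y-linked genes, a marker of male sex, with 2911 counts against 20 to 79 in each of the other 6. The labels do not give the sex of the mice, and its part in the results was not tested. In sorted cell pools, a lower level cannot be separated into fewer cells that express the gene and less RNA in each cell. Fold changes below are log2 values of the first group over the second, each with its standard error, and p was adjusted by Benjamini-Hochberg over all genes that edgeR's quasi-likelihood test covered. A gene is called at an adjusted p under 0.05.

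**Figure D1:**
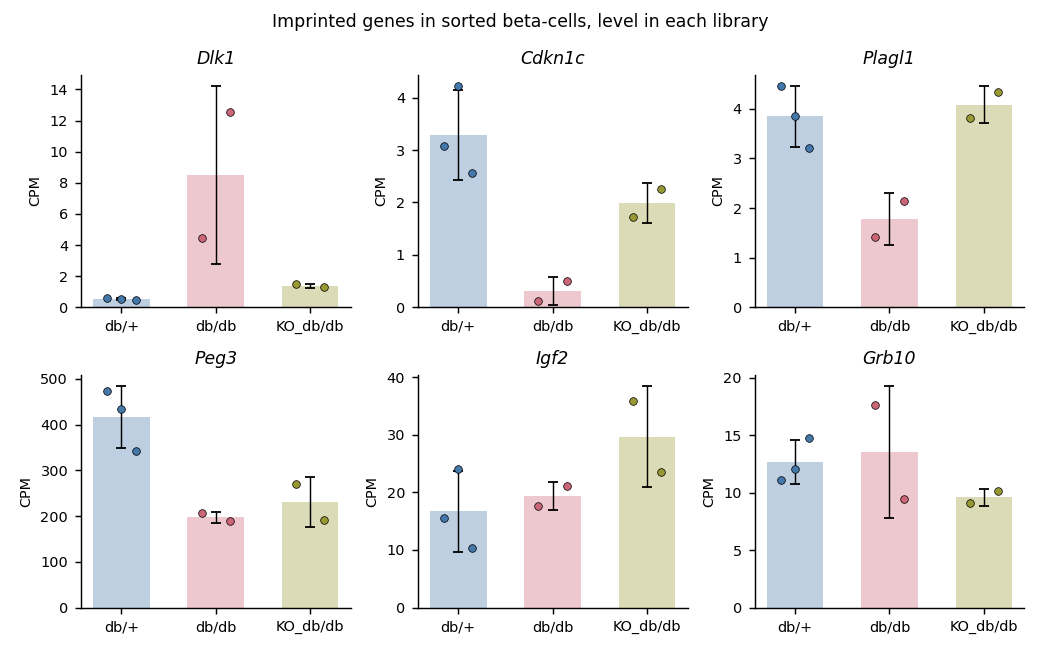
Level of the 6 measured imprinted genes in CPM (vertical axes, each from 0) in each library of db/+, db/db and KO_db/db. Points are single mice, bars are group means and error bars are 1 SD. Dlk1 sits highest in both db/db libraries, while Cdkn1c and Plagl1 sit lowest there, and Peg3 sits lower in both db/db groups than in db/+.

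In db/db against db/+ β-cells, Dlk1 rose and Cdkn1c, Peg3 and Plagl1 fell, while Igf2 and Grb10 did not pass the test. These are 4 of 6 measured genes, where 37.8% of all 13406 genes tested were called, 19.9% higher and 18% lower. The median absolute log2 fold change was 1.10 over the 6 genes and 0.50 over all genes tested. The 2 groups did not overlap for the same 4 genes, 1 higher and 3 lower, while this held for 63.3% of all genes tested, 32.6% higher and 30.7% lower.

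Dlk1 encodes a transmembrane, non-canonical Notch ligand, also known as preadipocyte factor, that holds back fat cell differentiation. It lies on chromosome 12 of GRCm38 from 109452823 to 109463336, 77664 bases before Meg3. Dlk1 had 0.573, 0.510 and 0.485 CPM in the 3 db/+ libraries, with 14 counts in each. It had 4.46 and 12.6 CPM in the db/db libraries, from 152 and 526 counts. Every db/db library was above every db/+ library, and the 2 db/db libraries themselves lay far apart. The log2 fold change was 4.01 (standard error 0.48, adjusted p = 0.0016). It was 3.07 without db/db 2, the higher library, and 4.57 without db/db 1, and it passed the test in both cases.

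Dlk1 was also the one measured coding gene of its domain that was tested. Rtl1, a retrotransposon-derived gene of the placenta, was at 0 in the 3 db/+ libraries and at 0.264 and 0.167 CPM in db/db. Dio3, the deiodinase that inactivates thyroid hormone, did not exceed 0.0478 CPM in any library. Both were below the filter. Since Dlk1 and Igf2 are well known in stromal and fetal cells, markers of mesenchymal cells were summed. The 14 markers, among them the collagens Col1a1, Col1a2 and Col3a1, came to 1.60 to 2.87 CPM in db/+, 2.58 and 6.12 CPM in db/db, and 3.28 and 5.87 CPM in KO_db/db. Of the 2 db/db libraries, db/db 2 was the higher both in this sum and in Dlk1. KO_db/db 2, with a sum of 5.87 CPM, had 1.29 CPM of Dlk1. In that library Rgs5 held 2.09 CPM and Acta2 1.12 CPM, while Col1a1, Col1a2 and Col3a1 had 0.0485, 0.0243 and 0.0243 CPM. These collagens had 0.117, 0.822 and 0.0881 CPM in db/db 1, and 0.597, 0.741 and 0.454 CPM in db/db 2. None exceeded 0.327 CPM in db/+ or 0.287 CPM in KO_db/db 1. Alpha cell markers were also higher in db/db. The 8 markers summed to 3364 CPM in db/db 1 and 3035 CPM in db/db 2, against 1439 to 2104 CPM in the other 5 libraries. Within db/db, this order was opposite to that of Dlk1. The part of either marker list in the Dlk1 result was not tested.

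Cdkn1c encodes p57Kip2, an inhibitor of cyclin-dependent kinases, and is expressed from the maternal allele of the Kcnq1 domain. It lies on chromosome 7 from 143458339 to 143461050. It had 3.07, 4.23 and 2.56 CPM in db/+ and 0.117 and 0.502 CPM in db/db, where it rested on 4 and 21 counts. The groups did not overlap, and db/db 1 was near the detection floor. Cdkn1c fell by 3.37 (log2, standard error 0.62, adjusted p = 0.0072). The fold change was -4.77 without db/db 2 and -2.71 without db/db 1, and it was called in both cases.

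Peg3, a large zinc finger protein expressed from the paternal allele, had the highest level of the 6 genes in every group. The gene is on chromosome 7 from 6703892 to 6730431. It had 475, 434 and 342 CPM in db/+, and 206 and 189 CPM in db/db. The lowest db/+ library was well above the higher db/db library, and Peg3 fell by 1.09 (log2, standard error 0.16, adjusted p = 0.0035).

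Plagl1 encodes the zinc finger factor ZAC1, which acts on other imprinted genes and on the cell cycle. It lies on chromosome 10 from 13060504 to 13131694. It had 4.46, 3.87 and 3.22 CPM in db/+ and 1.41 and 2.15 CPM in db/db, without overlap. Its log2 fold change was -1.12 (standard error 0.32, adjusted p = 0.0326). The call was lost without db/db 1 (-0.85, adjusted p = 0.118), without db/+ 1 (adjusted p = 0.105) and without db/+ 2 (-1.12, adjusted p = 0.0869). Delta cell markers were also lower in db/db. The 5 genes summed to 169 CPM in db/db 1 and 87.5 CPM in db/db 2, against 381 to 2331 CPM in the other 5 libraries. They summed to 653 and 519 CPM in KO_db/db 1 and 2. Within db/db and within KO_db/db, this order was opposite to that of Cdkn1c and Plagl1. Within db/+ it was the order of Plagl1 but not of Cdkn1c. The β-cell marker sum was also lower in db/db, at 226394 CPM in db/db 1 and 202940 CPM in db/db 2. In db/+ it was 396768 to 444522 CPM. Ins2 alone had 152292 and 158486 CPM in db/db 1 and 2, and 259433 to 289317 CPM in db/+. The sum thus mainly follows insulin RNA and does not show whether the other markers fell. The sum was 299293 and 227010 CPM in KO_db/db 1 and 2. There Peg3 had 269.5 and 193 CPM, Plagl1 3.82 and 4.34 CPM, and Cdkn1c 1.72 and 2.26 CPM. The part of the delta and β-cell markers in the falls of Peg3, Plagl1 and Cdkn1c in db/db was not tested.

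The remaining pair, 1 ligand and 1 adaptor of the insulin and IGF receptors, had overlapping groups. Igf2, the fetal growth factor that signals through the type 1 IGF receptor, lies on chromosome 7 from 142650766 to 142666816, 11839 bases from Ins2 and 72622 bases from H19. Igf2 had 15.6, 24.1 and 10.3 CPM in db/+ and 17.7 and 21.1 CPM in db/db (log2 fold change 0.21, standard error 0.33, adjusted p = 0.648). Grb10, an adaptor that binds and dampens these receptors, lies on chromosome 11 from 11930508 to 12038683. It had 11.1, 12.1 and 14.8 CPM in db/+ and 17.6 and 9.46 CPM in db/db (0.08, standard error 0.28, adjusted p = 0.849). For Igf2, the spread among the 3 db/+ mice was wider than the distance between the group means, and for Grb10 the 2 db/db mice lay on opposite sides of the db/+ range.

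In KO_db/db against db/db, none of the 6 genes was called by edgeR, and 3 (Dlk1, Cdkn1c and Plagl1) had an unadjusted p under 0.05. Of all 13486 genes tested, 0.319% were called (0.126% higher and 0.193% lower) and 20.9% had an unadjusted p under 0.05. The counts of calls moved widely with the method here: DESeq2, edgeR without a filter on low counts and a single edgeR fit of all 7 libraries each called 2 of the 6, Dlk1 and Cdkn1c, beside 10.6%, 8% and 5.93% of all genes tested.

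Dlk1 had 1.48 and 1.29 CPM in KO_db/db, below both db/db libraries (4.46 and 12.6 CPM). The log2 fold change was -2.63 (standard error 0.55, adjusted p = 0.114), and it ranged from -3.19 without db/db 1 to -1.69 without db/db 2. Cdkn1c had 1.72 and 2.26 CPM in KO_db/db, above both db/db libraries (0.117 and 0.502 CPM), with a log2 fold change of 2.65 (standard error 0.77, adjusted p = 0.163) that ranged from 1.98 without db/db 1 to 4.04 without db/db 2. Plagl1 had 3.82 and 4.34 CPM in KO_db/db, above both db/db libraries (1.41 and 2.15 CPM), with a value of 1.19 (standard error 0.36, adjusted p = 0.168). The knockout libraries thus stood apart from the db/db libraries for these 3 genes, but with 2 mice a group the differences did not pass the adjusted threshold.

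Igf2 had 35.9 and 23.5 CPM in KO_db/db, also above both db/db libraries (17.7 and 21.1 CPM), with a log2 fold change of 0.61 (standard error 0.25, adjusted p = 0.247). Non-overlap was common in this comparison: it held for 57.5% of all genes tested (28.4% higher and 29.1% lower) and for 4 of the 6 (Igf2, Cdkn1c and Plagl1 higher, Dlk1 lower). Peg3 had 269.5 and 193 CPM in KO_db/db against 206 and 189 CPM in db/db (0.22, standard error 0.21, adjusted p = 0.561), and its value was -0.036 without KO_db/db 1. Grb10 had 9.07 and 10.1 CPM against 17.6 and 9.46 CPM (-0.50, standard error 0.32, adjusted p = 0.423). For Peg3 and Grb10 the groups overlapped. Igf2 and Peg3 were both higher in KO_db/db 1, the library with the larger acinar share of 17.3%, than in KO_db/db 2, and the part of the acinar RNA in these levels was not tested.

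In KO_db/db against db/+, 2 of the 6 genes were called, Dlk1 higher and Peg3 lower, where 38.4% of all 13228 genes tested were called, 20.5% higher and 17.9% lower. These values use the same KO_db/db and db/+ libraries as the comparisons above. The 2 knockout levels of Dlk1 were above all 3 db/+ levels, with a log2 fold change of 1.40 (standard error 0.43, adjusted p = 0.0403). The Dlk1 call was lost without any 1 of the 5 libraries (adjusted p from 0.0679 without db/+ 3 to 0.176 without KO_db/db 1, with fold changes from 1.30 to 1.49), without a filter on low counts (adjusted p = 0.0862) and in the fit of all 7 libraries (adjusted p = 0.0531). Peg3 fell by 0.84 (log2, standard error 0.21, adjusted p = 0.0193), with both knockout libraries below the 3 db/+ libraries. Its call was lost without KO_db/db 2 (-0.64, adjusted p = 0.0802), without db/+ 1 (-0.74, adjusted p = 0.0577) and without db/+ 2 (-0.82, adjusted p = 0.0564).

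The other 4 genes were not called against db/+. Cdkn1c was lower in both knockout libraries than in all 3 db/+ libraries, by a log2 value of -0.71 (standard error 0.33, adjusted p = 0.133), and so was Grb10, at -0.39 (standard error 0.17, adjusted p = 0.109). Plagl1 overlapped with db/+ at 0.09 (standard error 0.24, adjusted p = 0.775). Igf2 was at 0.83 (standard error 0.35, adjusted p = 0.100), with 23.5 CPM in KO_db/db 2 just below the 24.1 CPM of db/+ 2. It was called by DESeq2 (adjusted p = 0.0347), without the filter (adjusted p = 0.0248) and without db/+ 2 (adjusted p = 0.0336). Groups did not overlap for 4 of the 6 genes, 1 higher and 3 lower, and for 64.1% of all genes tested (31.7% higher and 32.5% lower).

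**Figure D2:**
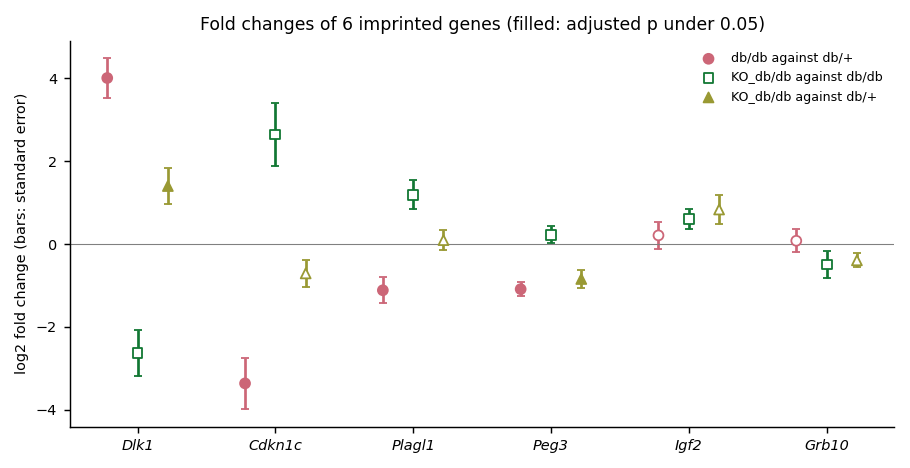
Log2 fold change of the 6 genes (vertical axis) in the 3 comparisons, with bars of 1 standard error, and filled symbols for an adjusted p under 0.05. For Dlk1, Cdkn1c and Plagl1 the values of db/db against db/+ (4.01, -3.37 and -1.12) and of KO_db/db against db/db (-2.63, 2.65 and 1.19) have opposite signs, and the db/db libraries are shared by both comparisons.

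Levels of different genes were set side by side per kilobase of merged exon length. In db/+, the mean CPM per kilobase was 31.3 for Peg3, 2.92 for Igf2, 1.61 for Cdkn1c, 1.39 for Grb10, 0.492 for Plagl1 and 0.0924 for Dlk1. Among neighbours in this order, the ranges of Igf2 and Cdkn1c (1.80 to 4.22 against 1.26 to 2.07) and of Cdkn1c and Grb10 (1.22 to 1.63) overlapped among the 3 db/+ libraries, and the other neighbours did not overlap. With the length of the longest transcript in place of merged exons, 4 of the 6 genes had the same rank. In db/db, Dlk1 was no longer last, at 1.51 CPM per kilobase (0.789 to 2.22), a range that overlapped that of Grb10 at 1.49 (1.04 to 1.94). With the longest transcript, the mean of Dlk1 was 1.83 and that of Grb10 2.67, so the order of this pair was not settled. Cdkn1c moved from rank 3 in db/+, or rank 4 with the longest transcript, to last in db/db. There it was at 0.152 (0.0576 to 0.246), a range that overlapped that of Plagl1 (0.180 to 0.275). In KO_db/db, Dlk1 was last again at 0.244, and Cdkn1c was at 0.976, with a range (0.845 to 1.11) that overlapped that of Grb10 (0.998 to 1.11).

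The domains around the measured genes were described from a list of 57 other imprinted genes, of which 53 had a row and 40 were tested in db/db against db/+. Imprinting of many of these genes is known from other tissues and is not known to hold in β-cells. In that comparison 23 of the 40 (57.5%) were called, 11 higher and 12 lower, beside 37.8% of all genes. Counting the 6 genes above, genes known as maternally expressed had 5 calls higher and 8 lower of 22 tested, and genes known as paternally expressed had 6 higher and 7 lower of 22, so both classes moved in both directions.

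In the Peg3 domain, Usp29 and Zim1 fell along with Peg3 and Zfp264 rose in db/db against db/+. Usp29, a ubiquitin protease gene that shares the Peg3 promoter region in the opposite direction, had 31.4, 36.5 and 29.7 CPM in db/+, 15.7 and 22.7 CPM in db/db, and 21.0 and 23.7 CPM in KO_db/db (log2 fold change -0.77 in db/db, standard error 0.19, adjusted p = 0.0192). Zim1, a zinc finger gene, had 15.1, 19.2 and 12.3 CPM in db/+, 2.82 and 4.61 CPM in db/db, and 8.04 and 11.8 CPM in KO_db/db (-2.07, standard error 0.29, adjusted p = 0.00277). For both genes the db/db libraries lay below every db/+ library. Zfp264 was singled out after its values were seen. It had at most 0.219 CPM in db/+, 1.09 and 2.53 CPM in db/db, and at most 0.121 CPM in KO_db/db. Its log2 fold change in db/db was 4.13 (standard error 0.96, adjusted p = 0.0158). It was above the floor in both db/db libraries and near it elsewhere. With 37 and 106 counts in db/db and 2, 6 and 0 in db/+, it passed the filter on low counts only through db/db. Zfp264 was thus tested only because it was high there. Against db/+, Usp29 was also lower in KO_db/db (-0.53, standard error 0.13, adjusted p = 0.0188). The calls in db/db were lost for Usp29 without db/+ 1 or db/+ 2 (adjusted p = 0.0531 and 0.0618) and for Zfp264 without db/db 2 or db/+ 1 (0.104 and 0.0530). The knockout call of Usp29 was lost without KO_db/db 1 or db/+ 2 (adjusted p = 0.0875 and 0.0516).

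**Figure D3:**
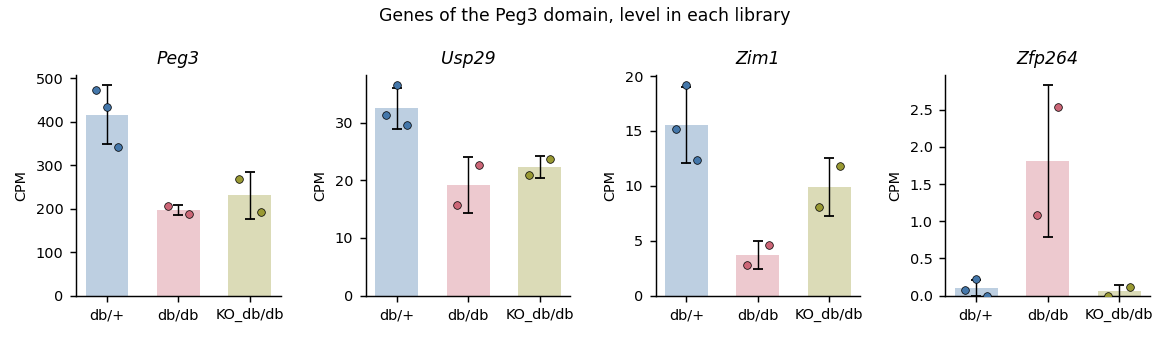
Level of Peg3 and 3 genes of its domain in CPM (vertical axes, each from 0) in each library, with points for single mice, bars for group means and error bars of 1 SD. Peg3, Usp29 and Zim1 sit lower in db/db than in db/+, and Zfp264 reaches 1.09 and 2.53 CPM in the db/db libraries alone.

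In the Kcnq1 domain, 8 genes were tested in db/db against db/+, Cdkn1c among them. Of these, 1 was called higher and 3 lower, beside 19.9% and 18% of all genes tested. Cd81, Nap1l4, Slc22a18 and Tspan32 were not called, and 3 genes were called beside Cdkn1c. Kcnq1, a voltage-gated potassium channel gene linked to type 2 diabetes by association studies, had 1.92, 1.28 and 1.32 CPM in db/+ and 0.0294 and 0.167 CPM in db/db, from 1 and 7 counts (-3.84, standard error 0.76, adjusted p = 0.00898), or -3.15 without db/db 1 and -5.50 without db/db 2, both called. Kcnq1 passed the filter on low counts in that comparison only through db/+, where it had 47, 35 and 38 counts. In the knockout it had 5.25 CPM in KO_db/db 1 and 0.752 CPM in KO_db/db 2, and its log2 value against db/+ was -0.99 without KO_db/db 1. That library held 17.3% acinar counts against 1.95% in the other, and the part of acinar RNA in the Kcnq1 level was not tested. Tssc4 had 94.0, 77.7 and 100.1 CPM in db/+ and 39.5 and 30.8 CPM in db/db (-1.38, standard error 0.17, adjusted p = 0.00173). Osbpl5, a lipid transfer protein gene, moved the other way, with 17.7, 17.0 and 20.8 CPM in db/+ and 27.2 and 38.6 CPM in db/db (0.82, standard error 0.18, adjusted p = 0.0136). That call was lost without db/db 2 (adjusted p = 0.0533) and without db/+ 1 (adjusted p = 0.0522). It was also higher in KO_db/db against db/+, at 34.8 and 43.8 CPM (1.10, standard error 0.14, adjusted p = 0.00242). Beside Grb10, Ddc, the decarboxylase that makes dopamine and serotonin, was lower than in db/+ both in db/db (-0.82, standard error 0.12, adjusted p = 0.00338) and in KO_db/db (-0.38, standard error 0.12, adjusted p = 0.0404), while Grb10 itself was called in neither. The knockout call of Ddc held without db/+ 3 and was lost without any other of the 5 libraries (adjusted p from 0.0937 without db/+ 2 to 0.128 without db/+ 1, and 0.111 and 0.112 without KO_db/db 2 and KO_db/db 1).

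Away from these domains, the largest changes among the other imprinted genes with a mean of at least 1 CPM were those of Kcnk9, a two-pore potassium channel gene, and Nnat, which encodes neuronatin, a small membrane protein known to aid insulin processing in β-cells. Kcnk9 had 0.205, 0.255 and 0.450 CPM in db/+, from 5, 7 and 13 counts. It had 3.58 and 14.0 CPM in db/db, and 5.17 and 13.7 CPM in KO_db/db. Against db/+, it passed the filter on low counts only through the db/db or KO_db/db libraries, where it was high. It rose by 4.82 in db/db (standard error 0.66, adjusted p = 0.00255) and by 4.93 in KO_db/db (standard error 0.53, adjusted p = 0.00132) against the same db/+ libraries. Without db/db 2 the rise in db/db was 3.52, without db/db 1 it was 5.48, and without KO_db/db 2 the rise in the knockout was 4.05, each past the threshold. Nnat had 36.9, 36.2 and 20.04 CPM in db/+, 1.88 and 3.37 CPM in db/db, and 10.3 and 14.6 CPM in KO_db/db. It fell by 3.56 in db/db (standard error 0.39, adjusted p = 0.00127) and by 1.30 in KO_db/db (standard error 0.30, adjusted p = 0.0153), and the latter call was lost without KO_db/db 1 (adjusted p = 0.0834).

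The paraoxonase gene Pon3 (log2 fold change 1.33) and the signal peptide peptidase gene H13 (1.16) completed the 3 largest rises in db/db. Between KO_db/db and db/+, 13 of 38 tested genes (34.2%) were called, 7 higher and 6 lower, beside 38.4% of all genes, with Nap1l5 (0.84) among the largest rises after Kcnk9 and Osbpl5, and Impact, a regulator of translation under amino acid shortage (-1.36), and the ubiquitin ligase gene Ube3a (-0.82) among the deepest falls. Between KO_db/db and db/db, 0 of 40 were called by edgeR and 16 had an unadjusted p under 0.05, beside 0.319% and 20.9% of all genes tested. DESeq2 called 12, edgeR 10 when no filter was used, and a single fit of the 7 libraries 9, beside 10.6%, 8% and 5.93% of all genes.

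**Figure D4:**
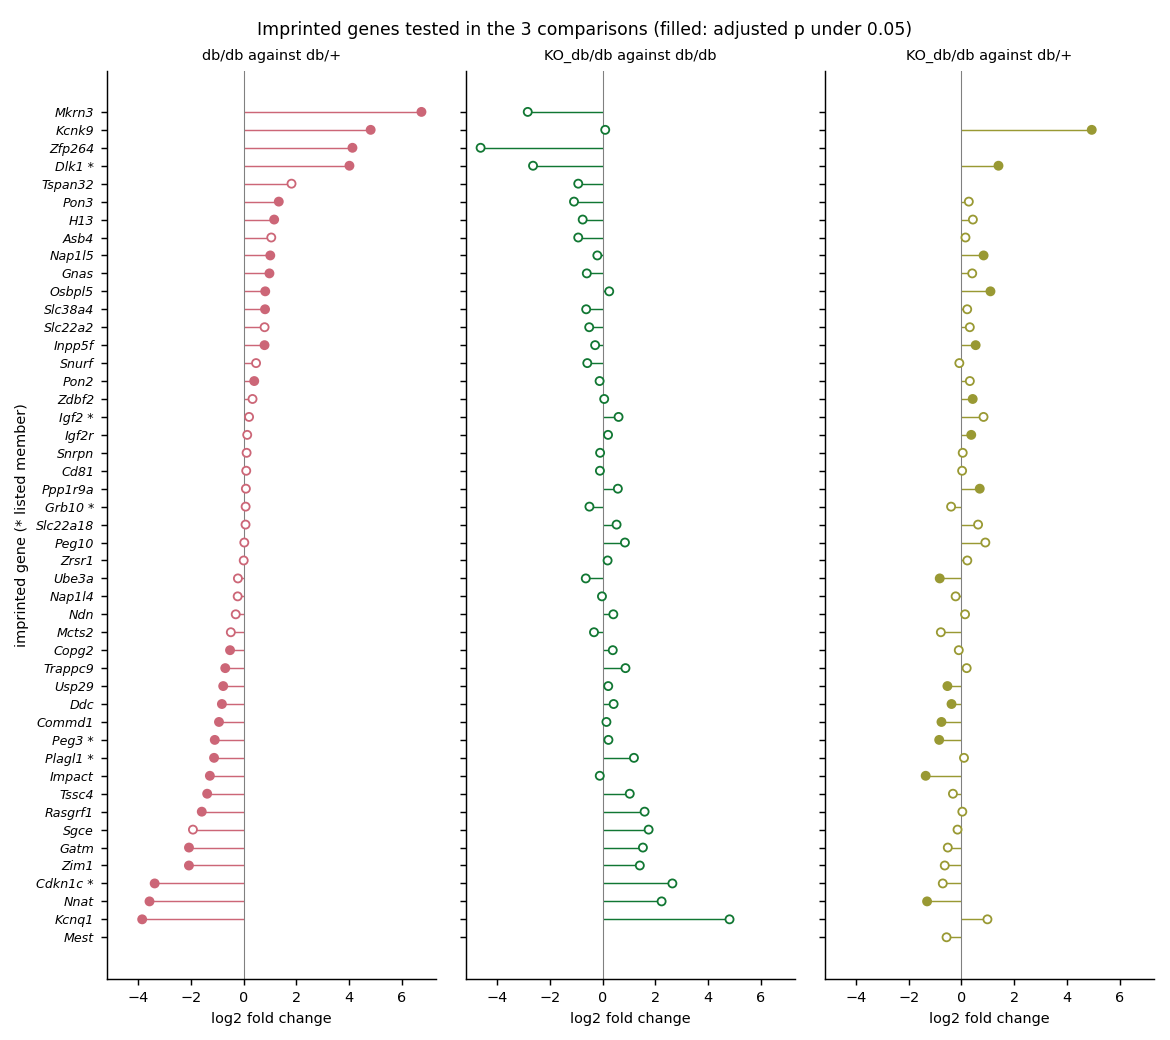
Log2 fold change (horizontal axes) of the imprinted genes tested in each of the 3 comparisons, ordered by db/db against db/+, with filled points for an adjusted p under 0.05 and asterisks at the listed genes. In db/db against db/+, 4 of the 6 listed and 23 of the 40 other genes are filled, and in KO_db/db against db/db none is.

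Genes of DNA methylation and imprint maintenance were described from a list of 17, of which 15 were tested in db/db against db/+. The list also holds chromatin factors, such as Ctcf, Rad21, Setdb1, Arid4a and Arid4b. In db/db, 6 of the 15 (40%) rose and none fell, beside 37.8% of all genes called, 19.9% higher and 18% lower. They included all 3 Tet genes, whose enzymes oxidise methylated cytosine. Also among them were the methyltransferase gene Dnmt3a (log2 fold change 0.64, standard error 0.14, adjusted p = 0.0130), Arid4a (0.83) and Arid4b (0.70). Tet3 had 3.77, 5.62 and 5.19 CPM in db/+, 16.1 and 21.98 CPM in db/db, and 20.4 and 24.0 CPM in KO_db/db, with a log2 fold change of 1.96 in db/db (standard error 0.23, adjusted p = 0.00152) and 2.20 in KO_db/db (standard error 0.19, adjusted p = 0.000844) against db/+. Tet2 had 1.15, 1.64 and 3.46 CPM in db/+, 8.98 and 12.2 CPM in db/db, and 9.52 and 9.44 CPM in KO_db/db (2.32 and 2.18 against db/+, standard errors 0.44 and 0.42, adjusted p = 0.00762 and 0.0087). Tet1 rose less, by 1.25 in db/db (standard error 0.21, adjusted p = 0.00512). For the 3 Tet genes every db/db and KO_db/db library was above every db/+ library. Ductal markers moved with the Tet genes, and with the rises of Osbpl5 and Kcnk9: the 10 genes summed to 343 to 372 CPM in db/+, 490 and 644 CPM in db/db, and 545 and 573 CPM in KO_db/db. Their part in these results was not tested.

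Relative to db/+, 8 of the 15 tested genes rose in KO_db/db and 1 fell (60% called), beside 38.4% of all genes called, 20.5% higher and 17.9% lower. Among the rises were Dnmt3a (0.93, standard error 0.12, adjusted p = 0.00216) and Dnmt1 (0.56, standard error 0.14, adjusted p = 0.0231). In db/db, Dnmt1 was not called (0.38, adjusted p = 0.0873). The one that fell was Uhrf1, which brings the maintenance methyltransferase Dnmt1 to replicating DNA. It had 1.23, 1.39 and 1.80 CPM in db/+, 0.0587 and 0.597 CPM in db/db (2 and 25 counts), and 0.328 and 0.121 CPM in KO_db/db. Its log2 value in KO_db/db was -2.75 (standard error 0.61, adjusted p = 0.0141), and the call was lost without KO_db/db 2 (-2.16, adjusted p = 0.0620) and in the fit of all 7 libraries (adjusted p = 0.0578), while the value was -3.55 without KO_db/db 1. In db/db, Uhrf1 was not called by edgeR (-2.13, adjusted p = 0.0881). It was called by DESeq2 (-2.14, adjusted p = 0.0344), without the filter (-2.12, adjusted p = 0.0422) and without db/db 2 (-4.57, adjusted p = 0.0132), and its value was -1.31 without db/db 1. The imprint protectors Zfp445 (31.5 to 34.1 CPM in all 7 libraries) and Trim28 (61.2 to 73.8 CPM) passed the test in none of the 3 comparisons, and Zfp57 had at most 0.119 CPM. Between KO_db/db and db/db, 0 of 14 tested genes were called and 1 had an unadjusted p under 0.05, beside 0.319% and 20.9% of all genes tested.

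**Figure D5:**
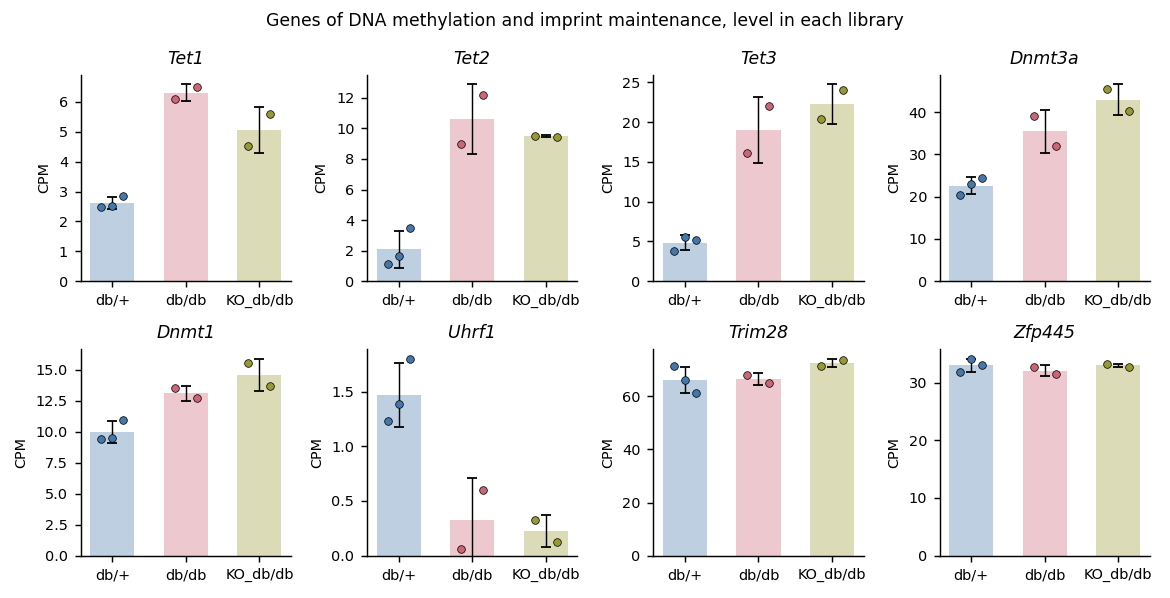
Level of 8 genes of DNA methylation and imprint maintenance in CPM (vertical axes, each from 0) in each library, with points for single mice, bars for group means and error bars of 1 SD. The Tet genes, Dnmt3a and Dnmt1 sit higher in db/db and KO_db/db than in db/+, Uhrf1 sits lower, and Zfp445 stays between 31.5 and 34.1 CPM.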

How the data were processed

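Sorted β-cells of 7 mice were sequenced as poly-A libraries, and samples were grouped by the labels. The authors deposited estimated counts per gene symbol, which kallisto 0.44.0 gave on GRCm38 (bcl2fastq 2.19 before it), as whole numbers without normalization. The annotation release is not given in the sources used here, and kallisto divides reads among similar or overlapping transcripts. No column was left unused (0). Positions and exon lengths came from GENCODE M21.

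From these counts, edgeR 4.0.16 (R 4.3.3; filterByExpr with a minimum count of 10, TMM, quasi-likelihood test, Benjamini-Hochberg, threshold 0.05) was fitted on the libraries of each pair of groups. The standard error is the fold change over the root of F. The fits were tested on simulated data. Replicates differed beyond sampling noise, and p-values measure the spread between these mice. The depth of 27496645 to 35852785 counts sets the precision, for counting error only.

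Named genes were all listed genes, the 3 largest rises and falls past the threshold among other imprinted genes (mean of at least 1 CPM), the 3 largest changes among maintenance genes, domain neighbours, and, for Meg3, the 5 genes closest in pattern, which could not be given. The genes, lists and tests were chosen with earlier results of these data known. Marker lists of beta, acinar, Reg, ductal, alpha, delta, PP, endothelial, mesenchymal, macrophage and Schwann cells were summed. Alternatives were RLE scaling, DESeq2 1.42.0, no filter, 1 fit of all libraries, the mouse number as a block, TMM without acinar and Reg genes, an adjusted p under 0.01, other lengths, and leaving out each library.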

Additional observations from a re-analysis of the deposited data

How the results depend on the processing

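Over 210 alternative values of the 6 listed genes, 175 kept their direction and side of the threshold, 17 lost a call, 9 gained one and 9 changed sign. Over 551 values of other named genes these were 483, 31, 29 and 8. The causes were not tested. Deviations from the group means of mice with the same number correlated across genes at -0.10 to 0.076. In groups of 2 mice these deviations mirror each other, so the correlations cannot decide whether mouse numbers paired the samples. With the replicate block, 1 of the 6 listed genes was called in KO_db/db against db/+ in place of 2, Igf2 in db/db against db/+ was at -0.018 and Plagl1 in KO_db/db against db/+ at -0.017, and the numbers of other imprinted and maintenance genes called stayed within 1.5 times. Between KO_db/db and db/db, DESeq2, no filter and 1 fit of all 7 libraries called 2, 2 and 2 listed genes and 12, 10 and 9 other imprinted genes in place of 0, and the fit of all 7 called 1 maintenance gene in place of 0. All genes called there numbered 43 with edgeR, 1374 with DESeq2, 1570 without the filter and 818 in the fit of all 7. Leaving out 1 library gave 0 to 2 other imprinted genes in that comparison and 0 to 1 listed genes in KO_db/db against db/+, where the fit of all 7 gave 1. At an adjusted p under 0.01, KO_db/db against db/+ had 0 listed, 6 other imprinted and 5 maintenance genes, and db/db against db/+ had 3 maintenance genes. The longest transcript kept 4 of 6 ranks. Signs turned, all in values not called, as follows. In db/db against db/+, Igf2 was -0.045 without db/+ 3, Grb10 -0.43 without db/db 1 and -0.0058 without db/+ 1, and Ube3a 0.0019 without db/db 2, with opposite extremes of 0.57, 0.46 and -0.47. Between KO_db/db and db/db, Peg3 was -0.036 and Impact 0.13 without KO_db/db 1, Kcnk9 -0.77 without KO_db/db 2 and -0.56 without db/db 1, Grb10 0.018 without db/db 1, and without db/db 2 Tet2 was 0.075 and Impact 0.00013. Their opposite extremes were 0.45 (Peg3), -0.39 (Impact), 1.40 (Kcnk9), -0.88 (Grb10) and -0.37 (Tet2). Against db/+, KO_db/db had Plagl1 at -0.016 without KO_db/db 2 and -0.017 without db/+ 3, Kcnq1 -0.99 without KO_db/db 1, and Pon3 -0.014 without KO_db/db 2, with opposite extremes of 0.21, 1.80 and 0.50. Depth limits Kcnq1 (1 and 7 counts), Uhrf1 (2 and 25) and Cdkn1c (4 and 21) in db/db. It also limits Kcnk9 (5, 7 and 13 counts) and Dlk1 (14 a library) in db/+. Apart from Dlk1, these genes passed the filter on low counts in db/db against db/+ through the group where they were higher.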

Other observations

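Over 7636 genes with a mean of at least 10 CPM, the 5 closest to Dlk1 in pattern were Astn1, Bambi, Retreg1, Ache and Rasgrf2, by the mean absolute difference of centred log2 CPM over the 7 libraries (0.31, 0.41, 0.41, 0.45 and 0.48). The measure was applied to Dlk1 after its values were seen. Astn1, which encodes an adhesion protein of migrating neurons, had a mean of 3.15 CPM in db/+, 32.4 CPM in db/db and 8.50 CPM in KO_db/db. Ache, the acetylcholinesterase gene, had 3.35, 70.5 and 11.5 CPM in the same order. Bambi, a pseudoreceptor that dampens TGF-β signals, had 37.9, 254.5 and 71.9 CPM. All 5 had their highest group mean in db/db and their lowest in db/+, an order that follows from choosing them by likeness to Dlk1.

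Zrsr1, a paternally expressed gene inside an intron of Commd1, had 105 CPM in db/+ 3 and 20.8 and 25.5 CPM in db/+ 1 and 2, against 48.1 to 60.9 CPM in the 4 db/db and KO_db/db libraries. The same db/+ 3 library held 2911 Y-linked counts, and the part of sex in the Zrsr1 level was not tested. Mkrn3, a ubiquitin ligase gene of the Snrpn-Ube3a domain, was at 0 in all 3 db/+ libraries. It had 0.294 and 0.549 CPM in db/db, from 10 and 23 counts, and at most 0.0971 CPM in KO_db/db. In db/db against db/+ it was called higher (log2 fold change 6.74, standard error 1.46, adjusted p = 0.0228). It passed the filter on low counts only through db/db, and the size of its value rests on the 0 counts in db/+.

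The marker lists not named above summed over the 7 libraries to 151 to 910 CPM (PP), 24.8 to 77.5 CPM (macrophage) and 6.92 to 10.8 CPM (Schwann). The endothelial list summed to 14.9 to 53.7 CPM, with the highest value in db/+ 3. Pecam1 alone held 45.3 CPM of that value and Esam 5.64 CPM, while Kdr was at 0 and Cdh5 and Cldn5 at 0.0346 CPM. The 6 Reg genes summed to 3040 and 338 CPM in KO_db/db and to 1.07 to 8.95 CPM in the others.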
